A study of Mus musculus with 3 samples.

Results

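B_cell_2 is a small B cell cluster of the healthy mouse kidney. Its members were taken by the authors' cluster name and comprise 352 of the 20266 immune cells in the deposited table, beside 3759 cells of B_cell_1 and 247 of B_cell_3. The cells came from untreated wild-type male C57BL/6J mice aged 10 weeks, an inbred laboratory strain, and no group carried a transgene, a drug or an injury. Kidneys were perfused, cut by hand into the cortex, the medulla's outer part (OM) and its inner part (IM), digested and sorted for live cells with CD45, the surface protein of white blood cells, before droplet-based single-cell RNA sequencing in Aachen, Bonn and Hamburg. The cells of 1 compartment in 1 dataset were treated as 1 library, which gave 9 libraries with the 3 datasets as replicates. The number of mice behind a library is not given in the sources used here, so the spread between datasets may hold technical as well as animal differences.

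B lymphocytes recognise antigen through the B cell receptor, a membrane immunoglobulin joined to the signalling chains CD79A and CD79B. New B cells leave the bone marrow with IgM and CD24 on their surface and gain IgD, the IgE receptor CD23 (Fcer2a) and the complement receptor CD21 (Cr2) as they mature into follicular cells that recirculate through blood and lymph. Antigen contact switches on immediate early genes and activation genes such as Cd69 and Cd83, and mature B cells present peptides on MHC class II.

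B_cell_2 was set beside B_cell_1, the main B cell cluster, by named genes. Genes named by size had to keep the same direction in every library compared, so their recurrence across datasets was set by this rule. Vpreb3, Spib, Fam129c, Ms4a1 and Ly6d were higher in B_cell_2 without overlap between the libraries of both clusters, and the immunoglobulin genes Ighm and Iglc1 were higher in all 6 libraries that measured them. The genes Fcer2a, Cd83, Fos and Junb and the MHC class II genes H2-Aa and H2-Eb1 were lower in all 9 libraries. Cr2 was lower as well, but no Aachen cell of B_cell_2 held a UMI of it, and those libraries were too small for that to say much. Across the compartments of B_cell_2, edgeR called no gene outside the immunoglobulin variable genes with all 3 datasets and the filter on low counts. The difference of the medullary effect from B_cell_1 held a few other genes under some settings, given at the end. The clusters were built from these same genes, so all values of B_cell_2 beside B_cell_1 and B_cell_3 are descriptions without a test.

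The 9 libraries held 13 to 105 cells of B_cell_2 each: in cortex, OM and IM these were 22, 39 and 18 for Aachen, 105, 13 and 45 for Bonn and 31, 51 and 28 for Hamburg. Depth differed by dataset, with a median of 751 transcript molecules (unique molecular identifiers, UMIs) per B_cell_2 cell in Aachen, 2989 in Bonn and 2759 in Hamburg, beside 731, 2746.5 and 2548 in B_cell_1. Summed over cells, a library held 15295 to 357143 UMIs of B_cell_2. No B_cell_2 cell shared its barcode with a cell of another library of its dataset. Some genes were at 0 in every cell of a dataset, among them all 248 measured immunoglobulin genes in Aachen and Cd24a in Hamburg, and such a gene was compared over the other datasets alone.

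B cell markers are described here without a test, since the cells were clustered and named from these same genes. The 13 B cell markers summed to a median of 208 UMIs per 10000 in B_cell_2 (137.7 to 243 over 9 libraries), 113 in B_cell_1 and 4.25 in T cells. Cd79a, a signalling chain of the B cell receptor, had a UMI in 91.1% of the Aachen cells and in 100% of the Bonn and Hamburg cells of B_cell_2. Ms4a1, which encodes the B cell surface protein CD20, had one in 77.2, 100 and 98.2%, while T_cell_1, a cluster that should lack it, had 1.04, 2.57 and 0.900% at median depths of 927, 3056.5 and 3094 UMIs.

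Markers of most other lineages had medians near or below those of B_cell_1. The 12 T cell markers summed to a median of 0.744 UMIs per 10000 (0 to 4.58) against 1.90 in B_cell_1 and 56.4 in T cells, and the defining gene Trac was at 0. The 12 macrophage markers summed to 1.54 (0.691 to 32.3) against 4.16 in B_cell_1 and 353.8 in resident macrophages, and none of them was at 0 in all cells. Neutrophil, natural killer and endothelial markers had a median of 0, with 5 of 6, 3 of 7 and 4 of 6 genes at 0. Kidney epithelium markers had a median of 0.0532 and a highest value of 3.43. Monocyte markers had a median of 0.0623 against 0.198 in B_cell_1, and those of plasmacytoid dendritic cells 0.287 against 0.150. Both lists reached 6.70 in Aachen OM, beside a highest value of 0.297 and 0.303 in B_cell_1. Both hold Ly6c2, at 670.3 CPM in that library, where 2 and 20 of its UMIs lay in the 2 cells rich in Jchain described further on. Scrublet, which scores each cell against simulated cell pairs, called 1 of 352 B_cell_2 cells a doublet, or 0.284%, against 1.5% of all cells and 0.319% of B_cell_1. At least 2 UMIs of T cell markers were found in 8 B_cell_2 cells, of macrophage markers in 21 and of kidney epithelium markers in 18, and all of these 18 were Bonn cells. Leaving out such cells and the doublet reduced the Bonn IM library from 45 to 26 cells and the other libraries by 1 to 8 cells.

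**Figure D1:**
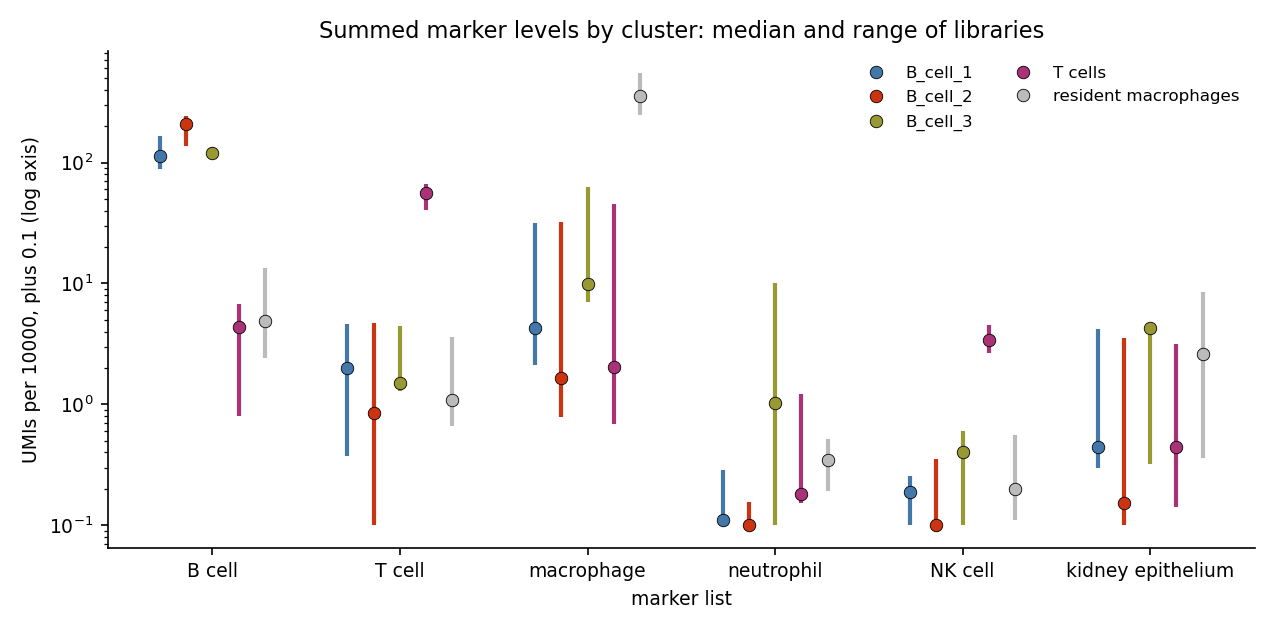
Summed UMIs of marker lists per 10000 UMIs, plus 0.1, on a log axis for B_cell_1, B_cell_2, B_cell_3, T cells and resident macrophages. Points are medians and lines the range over libraries (9 libraries, 4 for B_cell_3). B_cell_2 stands highest for B cell markers (median 208) and has a median near or below that of B_cell_1 for the other 5 lists.

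A count of members that were higher or lower in every library has a background over all genes. Levels are given as the count per 1000000 UMIs of the cluster in that library (CPM), and log2 differences were taken per library with a prior count of 2 and averaged over libraries. Of 3272 genes with at least 50 CPM in the higher cluster, 7.43% (243) were higher and 5.13% (168) lower in B_cell_2 than in B_cell_1 in every library, with a median log2 difference of 0.04. Counts drawn down to equal depth in both clusters gave 122 (3.65%) and 109 (3.27%) of 3338 genes with a median of 0.19. TMM scaling, which adds a scaling factor per library, gave 27 (0.829%) and 600 (18.4%) of 3258. The median under TMM was -0.56, so this scaling did not centre these genes. Under TMM the log2 differences were therefore lower by about that shift, and a gene slightly higher in CPM could turn lower.

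Vpreb3, Spib and Fam129c lay apart from B_cell_1 in all 9 libraries. Vpreb3, an endoplasmic reticulum protein of the B lineage, measured 582.6, 822.6 and 915.3 CPM (lowest, median, highest library) in B_cell_2 and 130.4, 199 and 261.7 CPM in B_cell_1. All 9 libraries of B_cell_2 lay above all 9 of B_cell_1, and the log2 difference was 1.96 (SD 0.41, n = 9). Spib, which encodes an ETS family transcription factor of B cells and plasmacytoid dendritic cells, measured 261.5, 462 and 698.8 CPM against 46.5, 115.8 and 154 CPM, a log2 difference of 1.99 (SD 0.45). Under TMM scaling these differences were 1.37 for Vpreb3 and 1.41 for Spib. Fam129c, a gene known for its expression in B cells, had the largest log2 difference among the genes named as higher over all 9 libraries, 3.17 (SD 0.56), from 128.5, 180.8 and 449 CPM against 6.04, 17.0 and 35.5 CPM.

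The stretches of 250 bases before the start sites of Vpreb3 and Spib are shown because both genes separated the clusters in every library, and the octamer is the classic element of B cell promoters. They are RefSeq sequences of the build GRCm38.p6, read 5′ to 3′ on the strand of the gene, chr10:75948050-75948299 (plus strand) for Vpreb3 and chr7:44532072-44532321 (minus strand) for Spib. Capitals mark matches of the octamer ATGCAAAT or its reverse complement. Both strands were searched for the octamer, the EBF core CCCNNGGGA and the ETS-type motif GAGGAA. These occurred in 1.6, 5.6 and 23.3% of 32851 promoters of the same length. The shorter string GGAA was not searched for. Vpreb3 held 1 octamer match and none of the other motifs, and Spib held none of the 3. A match is a description of letters, and nothing follows from it about binding.
Vpreb3: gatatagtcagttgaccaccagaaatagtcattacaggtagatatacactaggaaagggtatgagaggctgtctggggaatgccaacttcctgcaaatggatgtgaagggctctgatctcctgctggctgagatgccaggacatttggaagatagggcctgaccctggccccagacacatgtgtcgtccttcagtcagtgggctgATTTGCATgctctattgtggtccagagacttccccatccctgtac
Spib: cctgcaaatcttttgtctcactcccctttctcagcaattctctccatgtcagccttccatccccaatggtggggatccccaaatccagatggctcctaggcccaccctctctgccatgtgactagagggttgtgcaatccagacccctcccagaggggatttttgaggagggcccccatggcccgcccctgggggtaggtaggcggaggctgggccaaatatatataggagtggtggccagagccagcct

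Among the 12 genes of the immature B cell list, 4 reached 50 CPM in 1 of the clusters, and 3 of these were higher in B_cell_2 in every library, with a median log2 difference of 1.70 beside 0.04 over all genes. Besides Vpreb3 these were Sox4, which encodes a transcription factor of lymphoid progenitors, and Cd24a, which encodes the CD24 surface protein. Sox4 measured 24.96, 91.4 and 457.7 CPM against 10.0, 28.9 and 39.3 CPM, with overlap of the ranges (log2 difference 1.86, SD 1.21). Cd24a measured 731, 882 and 1004 CPM against 279, 328 and 411 CPM over 6 libraries, without overlap (1.42, SD 0.17). Akap12, a scaffold of protein kinase A, was higher in 7 of 9 libraries (1.53, SD 1.43). Cd93, which encodes the antigen read by the AA4.1 antibody on immature B cells, did not reach 50 CPM. It had a UMI in 6.13% of the Bonn and 15.5% of the Hamburg cells of B_cell_2, against 1.11 and 2.12% in B_cell_1. In Aachen, 0 of 79 B_cell_2 cells had one, which allows a share of cells with a UMI of up to 3.80%, against 0.599% in B_cell_1. T_cell_1 had 5.76% in Bonn and 5.17% in Hamburg, so the Bonn share was near the level of T cells. In cells thinned to 500 UMIs, B_cell_2 had 0.613% (0.0155 to 3.37) in Bonn and 2.73% (0.566 to 7.76) in Hamburg. B_cell_1 then stood at 0.123 and 0.529%, T_cell_1 at 1.23 and 1.35%, and B_cell_3 at 3.56% (1.55 to 6.89) in Hamburg. After thinning, Cd93 did not set B_cell_2 apart from T_cell_1 or, in Hamburg, from B_cell_3.

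Cells thinned to 500 UMIs each showed the same order for Vpreb3, with exact 95% binomial intervals that cover counting error only. In Aachen 38.5% (26.7 to 51.4) of 65 B_cell_2 cells kept a UMI of Vpreb3 against 6.50% (4.90 to 8.41) of 816 B_cell_1 cells. The shares were 31.3% (24.3 to 39.0) against 11.9% (10.3 to 13.6) in Bonn and 30.9% (22.4 to 40.4) against 9.79% (8.12 to 11.7) in Hamburg. Before thinning, 50.6, 80.4 and 69.1% of the B_cell_2 cells had a UMI of Vpreb3, against 9.79, 45.01 and 35.2% in B_cell_1. T_cell_1 stood at 1.10% in Bonn and 0.450% in Hamburg. Cells under 500 UMIs, left out here, numbered 14 in B_cell_2 and 185 in B_cell_1, all from Aachen.

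**Figure D2:**
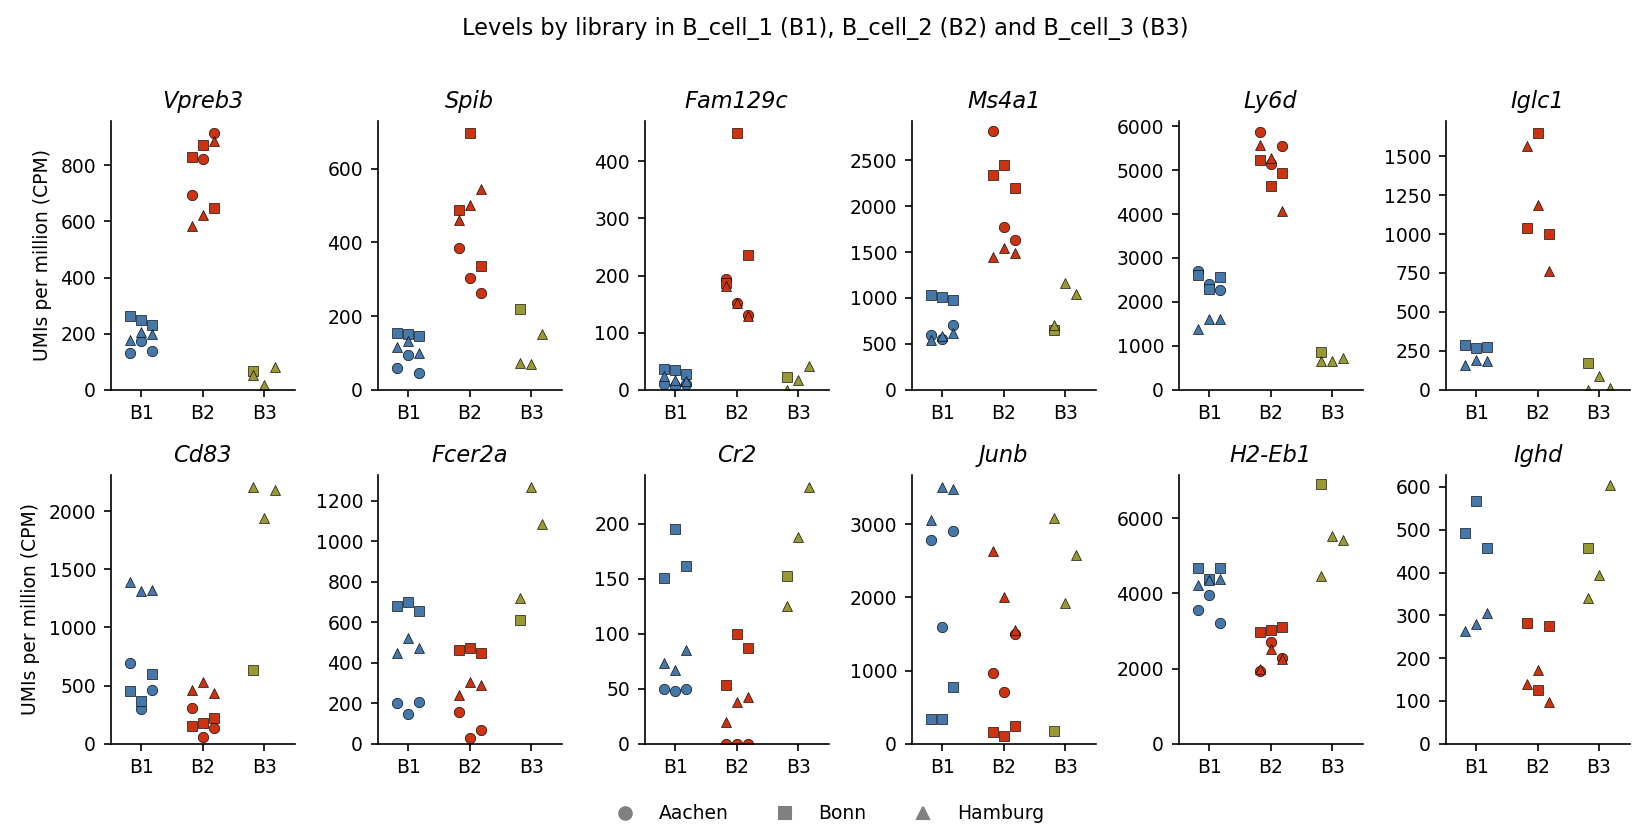
CPM of 12 genes in each library of B_cell_1 (B1), B_cell_2 (B2) and B_cell_3 (B3), with 1 point per library and the marker giving the dataset; axes are linear and start at 0. Vpreb3, Spib, Fam129c, Ms4a1, Ly6d and Iglc1 lie higher in B_cell_2 than in every B_cell_1 library, and H2-Eb1 lies lower than in every one.

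Of the B cell markers, 6 of 13 were higher and 1 lower in every library (median log2 difference 0.51, and -0.09 under TMM scaling). Ms4a1 measured 1446, 1767 and 2819 CPM against 544, 618 and 1027 CPM (1.42, SD 0.35), and Ly6d, a surface protein of B-committed lymphoid cells, 4079, 5228 and 5870 CPM against 1390, 2291 and 2709 CPM (1.28, SD 0.36). Neither gene overlapped between the clusters. Cd79b was higher by 1.06 (SD 0.32) and Cd79a by 0.51 (SD 0.21), the last measuring -0.09 under TMM scaling. Ebf1, which encodes a transcription factor of B lineage commitment, was higher in 7 of 9 libraries (0.28, SD 0.35; -0.32 under TMM).

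In the list of B cell receptor signalling, 8 of 19 genes were higher and 1 was lower in every library, with a median log2 difference of 0.19. At equal depth 4 of 19 were higher, and under TMM scaling the median turned to -0.34. The genes Ptpn6, Cd72 and Lyn, which act in inhibitory signalling of the receptor, were higher by 0.92 (SD 0.31), 0.86 (SD 0.44) and 0.77 (SD 0.56). Vav1, which carries the signal onward, was higher by 0.77 (SD 0.53). Cr2, which encodes the complement receptor CD21, was the lower one, with 0, 38.1 and 99.8 CPM against 48.3, 73.8 and 195 CPM. Its 3 Aachen libraries were at 0 in B_cell_2.

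Further genes named by size include Ifi30, a thiol reductase of the lysosome that prepares antigens for MHC class II. Ifi30 measured 130.8, 1156 and 1420 CPM against 71.2, 232 and 448 CPM (2.04, SD 0.64), with overlap of the ranges. Klhl14, an adaptor of a ubiquitin ligase, was higher in all 6 libraries that measured it (2.10, SD 0.94), and Cd36, a scavenger receptor also carried by marginal zone B cells, in all 9 (1.80, SD 1.02). Pepd and Fbxl5 had log2 differences of 1.86 and 1.79, and Lyrm5, Gm8394, Fam188a and D10Jhu81e were measured in Aachen alone. Of the 15 genes named as higher, 10 were higher in every library also at equal depth.

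Of 10 follicular B cell genes, 5 were lower and 0 higher in every library, with a median log2 difference of -0.76. At equal depth 3 were lower in every library and the median was -0.42. Fcer2a measured 30.5, 289 and 474 CPM against 148, 473.6 and 700.0 CPM (-0.90, SD 0.59). Its ranges overlapped between the clusters while within each library B_cell_2 was the lower one. Cd55, which protects cells from complement, had a log2 difference of -0.49 (SD 0.23), and Ighd and Cr2 were also lower in every library that measured them. Ccr7 and Cxcr5, which encode chemokine receptors, were lower in 7 and 6 of 9 libraries.

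Activation and immediate early genes lay lower. Of 12 activation genes at 50 CPM, 4 were lower and 0 higher in every library (median log2 difference -1.15). At equal depth Cd83 alone of 13 was lower in every library, and the median was -0.61. Cd83, which stabilises MHC class II on the surface, measured 60.9, 224 and 527 CPM against 302, 600.1 and 1393 CPM (-1.52, SD 0.36). Gpr183, an oxysterol receptor that guides activated B cells, measured 30.5, 53.5 and 140.6 CPM against 146.4, 192 and 234.5 CPM, without overlap (-1.68, SD 0.49). The other 2 of the 4 were Bcl2a1b, a survival gene with near-identical copies and hence an uncertain count, and Icosl, a ligand of T cell costimulation. Cd69 was lower in 7 of 9 libraries (-0.50, SD 0.61).

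Of 14 immediate early genes, 5 were lower and 0 higher in every library, with a median of -0.76. Fos measured 74.9, 588 and 1467 CPM against 174.6, 1840 and 2222 CPM (-1.15, SD 0.57), and Junb 99.8, 965 and 2632 CPM against 331, 2779 and 3510 CPM (-1.14, SD 0.47). Both encode subunits of the AP-1 transcription factor, and within each library B_cell_2 was the lower one. Jun, Klf6 and Rhob were the other 3. Of 11 heat shock genes, 0 were higher and 0 lower in every library, and the median was -0.20.

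MHC class II genes were lower in 4 of 10 cases in every library and higher in 0 (median -0.64). H2-Aa measured 1765, 2955 and 4485 CPM against 4114, 6306 and 6669 CPM (-0.94, SD 0.29). H2-Eb1 measured 1931, 2515 and 3096 CPM against 3206, 4359 and 4684 CPM, without overlap (-0.73, SD 0.21). H2-Oa and H2-DMb1, which control peptide loading, had log2 differences of -1.05 (SD 0.44) and -1.34 (SD 0.77). Cd74, the invariant chain, was lower in 6 of 9 libraries (-0.12, SD 0.22).

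**Figure D3:**
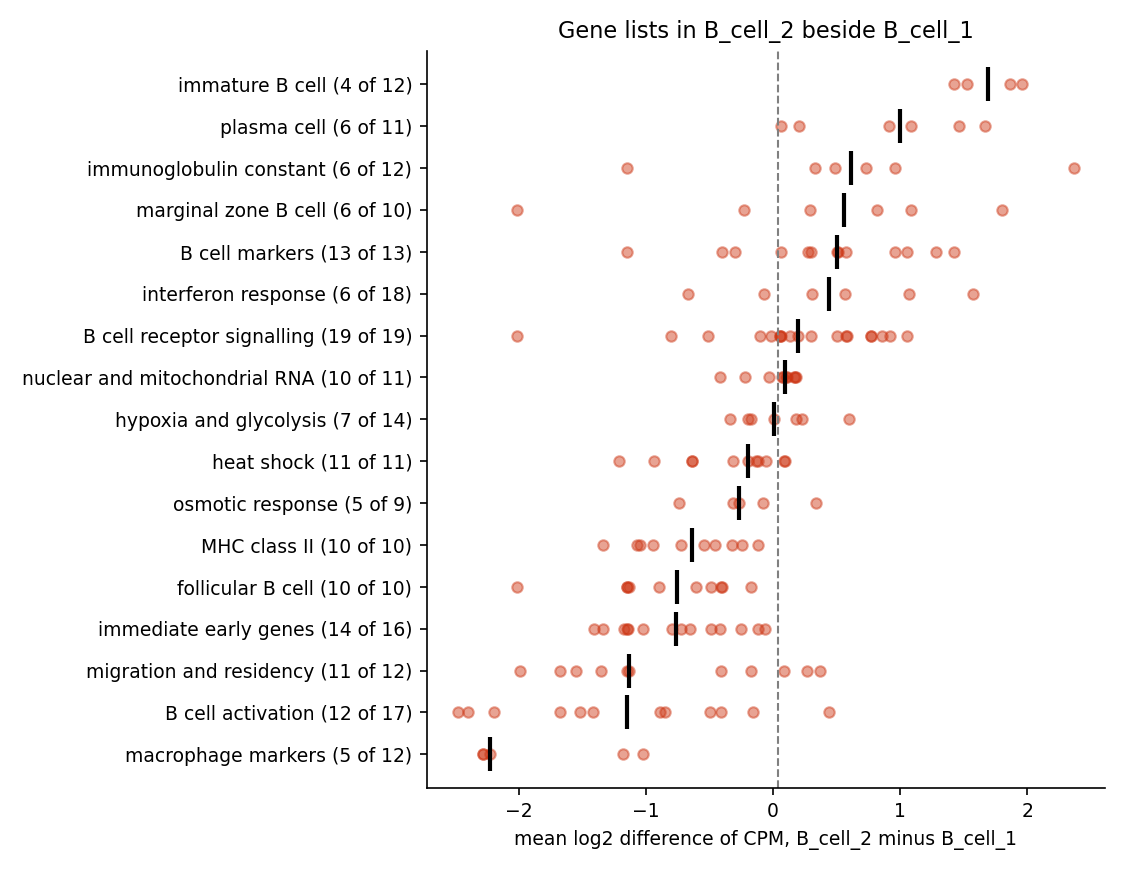
Mean log2 difference of CPM, B_cell_2 minus B_cell_1, for the members of each gene list with at least 50 CPM in the higher cluster (counts in brackets); dots are genes, black ticks list medians and the dashed line the median of all genes, 0.04. Immature B cell genes lie at the right (median 1.70), and follicular, immediate early and activation genes at the left (-0.76, -0.76 and -1.15).

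Immunoglobulin genes were compared over the 6 Bonn and Hamburg libraries. Ighm, the heavy chain of IgM, measured 1588, 1825 and 2903 CPM in B_cell_2 against 845, 1015 and 1146 CPM in B_cell_1, without overlap (0.96, SD 0.40). Ighd, the heavy chain of IgD, measured 96.4, 156 and 282.8 CPM against 262, 382 and 566 CPM (-1.15, SD 0.60). Of the UMIs of both genes, a median of 7.47% (4.59 to 14.7) were Ighd in B_cell_2, 28.1% (21.2 to 33.1) in B_cell_1 and 19.97% (18.3 to 26.4 over 4 libraries) in B_cell_3. The libraries of B_cell_2 did not overlap those of B_cell_1 or B_cell_3. Iglc1, a constant gene of the lambda light chain, measured 760, 1112 and 1647 CPM against 160, 228 and 285 CPM (2.37, SD 0.57), while Iglc2 and Iglc3 were higher by 0.73 (SD 0.34) and 0.49 (SD 0.31). The lambda constant genes are close copies whose reads can be split by counting, so their separate levels are uncertain. Of the UMIs of these genes and the kappa constant gene Igkc, lambda gave a median of 71.9% (66.4 to 73.1) in B_cell_2. In B_cell_1 it gave 61.9% (56.1 to 67.1). Whether these counts give the true balance of light chains was not tested. Among genes named as lower were the kappa variable genes Igkv6-25, Igkv6-23, Igkv4-72 and Igkv12-89, which stood at 0 to 87.3 CPM (median library) in B_cell_2. Igkv6-25 was at 0, 0 and 63.5 CPM against 104, 182 and 320.3 CPM.

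Genes of antibody secretion were higher in part. Of the plasma cell list, 2 of 6 genes were higher and 0 lower in every library. These were Txndc5, a protein disulfide isomerase (139, 270.3 and 396 CPM against 55.2, 99.7 and 138 CPM; 1.46, SD 0.71), and Mzb1, a chaperone of IgM assembly also found in marginal zone B cells (1.09, SD 0.78). Jchain, which links antibody polymers, was held by single cells: 3 B_cell_2 cells had at least 50 UMIs of it, with 427 and 258 in Aachen OM and 68 in Hamburg cortex. Another 4 cells had 1 to 49, and 0 of 163 Bonn cells had any, which allows a share of cells with a UMI of up to 1.84%. In B_cell_1, 1 of 3759 cells had at least 50. Without these 3 cells, as an alternative chosen after the data were seen, all 28 named genes that could be compared moved by less than 1 SD.

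Other lists moved little or in single genes. Plac8, a gene of the marginal zone list that also marks monocytes, was higher by 0.82 (SD 0.46), and the interferon-induced Ifi27l2a by 1.07 (SD 0.29), without overlap. Of 6 interferon genes at 50 CPM, 2 were higher and 0 lower in every library, and 0 of 5 were higher at equal depth. Of 14 cell cycle genes 3 reached 50 CPM, and Mki67 and Top2a, which mark dividing cells, were not among them. Hypoxia and osmotic response genes were higher in 0 and lower in 0 of 7 and of 5 cases. The ribosomal protein gene Rps27, chosen after its values were seen, was lower in all 9 libraries (-0.91, SD 0.12).

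The remaining genes named as lower over all 9 libraries were Gpr174, a receptor for lysophosphatidylserine, Plaur, the urokinase receptor, Smagp, Stat4, Hcst and Tagap. Gpr174 stood at 0, 0 and 24.9 CPM against 23.0, 59.5 and 74.2 CPM. Plaur stood at 0, 24.96 and 82.6 CPM against 53.0, 93.6 and 357 CPM. Raver1, Whsc1l1, Gm4978 and 2700060E02Rik were measured in Aachen alone. Of the 15 genes named as lower, 4 were lower in every library also at equal depth: Igkv6-25, Igkv6-23, Igkv4-72 and Gm4978. Plaur, Stat4, Hcst and Tagap did not keep 1 direction there, and Gpr174 and Smagp had no value at equal depth. The part of depth in the lower values of these genes was not tested. Many of the 15 genes were at 0 in 1 or more libraries of B_cell_2.

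B_cell_3 could be set beside B_cell_2 in 4 libraries with at least 10 cells of both, Bonn cortex and the 3 Hamburg libraries; 225 of its 247 cells came from Hamburg, at a median of 750 UMIs. Over 4493 genes, 18.1% were higher and 29.4% lower in B_cell_2 in all 4 libraries, with a median log2 difference of -0.35. At equal depth the shares were 13.8 and 21.9%, and under TMM scaling they turned to 30.2 and 15.7% with a median of 0.17. Vpreb3, Ly6d, Spib and Fam129c were higher than in B_cell_3 as well. Vpreb3 measured 582.6, 727 and 888.7 CPM against 17.1, 59.6 and 82.3 CPM (3.46, SD 0.52), Ly6d was higher by 2.78 (SD 0.30), Spib by 1.97 (SD 0.69) and Fam129c by 2.39 (SD 0.91). Plac8 (3.23, SD 1.19), Pafah1b3, a subunit of platelet-activating factor acetylhydrolase (3.89, SD 0.71), and the lambda variable gene Iglv2 (4.67, SD 0.90) were among those named by size. Of the 15 genes named as higher and the 15 named as lower, 15 and 13 kept 1 direction in all 4 libraries at equal depth.

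Of 8 macrophage markers with 50 CPM, 7 were lower in B_cell_2 than in B_cell_3 in all 4 libraries, with a median of -2.47. At equal depth 5 of 8 were, and the median was -2.17. C1qb, a complement subunit made by macrophages, measured 0, 8.53 and 16.8 CPM against 102.8, 167 and 1484 CPM, and Lyz2, lysozyme of myeloid cells, 0, 10.0 and 25.4 CPM against 120.0, 281 and 742 CPM. The nuclear RNA Malat1 was lower too (8030, 9583 and 10578 CPM against 14597, 38588 and 40254 CPM; -1.70, SD 0.57), as were the long transcripts Macf1 (-2.47, SD 0.83) and Huwe1 (-2.61, SD 0.56). Of the follicular list, 7 of 10 genes were lower and 0 higher. Scrublet called 4 of 247 B_cell_3 cells doublets, all among 21 Bonn cells; the part of other cells in these values was not tested.

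No difference between compartments was detected in the share of B_cell_2 among B cells, with 3 datasets. In cortex, OM and IM it was 10.6, 7.56 and 5.04% for Aachen. The Bonn values were 9.56, 7.03 and 8.57%, and the Hamburg values 6.83, 9.83 and 5.65%. Aachen and Bonn had their highest share in the cortex and Hamburg in the OM. The means were 8.99% ± 1.94 in cortex, 8.14% ± 1.49 in OM and 6.42% ± 1.89 in IM (SD, n = 3). The medulla, as the mean of OM and IM, differed from the cortex by -1.71 points (SD 2.59), with a two-sided exact permutation p of 0.259 over 27 arrangements, of which the smallest possible p is 0.037. The difference was -4.28 points in Aachen, -1.76 in Bonn and 0.908 in Hamburg. Of all CD45-sorted cells, B_cell_2 made up 0.867 to 2.87% per library, and the medulla differed by -0.259 points (SD 0.617).

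**Figure D4:**
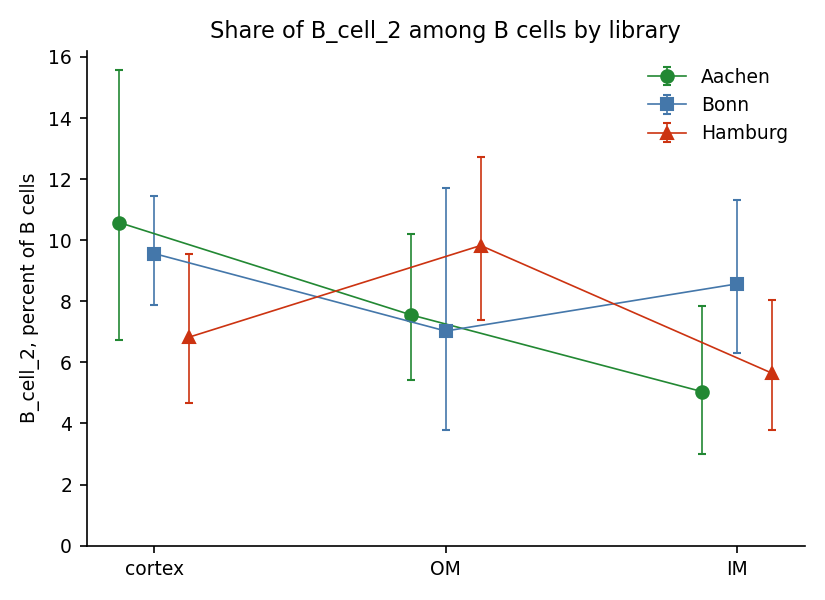
Share of B_cell_2 among all B cells in percent by compartment for each dataset, with exact 95% binomial intervals that cover counting error only. The 9 shares lie between 5.04 and 10.6%, and the datasets order the compartments differently.

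The genes of B_cell_2 were compared across compartments with edgeR's quasi-likelihood test on summed counts, with the dataset as block. Of 1825 genes tested, 0 (0%) were called at an adjusted p under 0.05 in the medulla against the cortex, 0 (0%) in OM against cortex and 0 (0%) in IM against cortex. At an unadjusted p under 0.05 there were 52, 61 and 34 genes, and DESeq2 called 2, 2 and 1, all immunoglobulin variable genes. Vpreb3 measured 633, 839 and 703 CPM (TMM-scaled) in cortex, OM and IM of Aachen, 976, 768 and 742 CPM in Bonn and 619, 682 and 906 CPM in Hamburg, and its log2 fold change in the medulla was 0.13 (SE 0.21). The fold changes were -0.03 (SE 0.23) for Spib, -0.18 (SE 0.11) for Ly6d, -0.20 (SE 0.16) for Ms4a1 and 0.20 (SE 0.31) for Fam129c. None of these 5 was called. Levels varied within single datasets: in cortex, OM and IM of Aachen, Ms4a1 measured 2565, 1803 and 1256 CPM and Ifi30 1019, 466 and 100.5 CPM. The fold change of Ifi30 was -0.30 (SE 0.31).

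The B cell activation list had the lowest median of the lists with at least 4 tested genes in the medulla against the cortex. Its 8 tested genes had a median log2 fold change of -0.96, beside -0.01 over all 1825 genes. Of these 8 genes, 6 had an unadjusted p under 0.05 in edgeR, beside 52 of the 1825, and 0 were called. In all 3 datasets 5 of the 8 were lower and 0 higher, and 7 of 14 immediate early genes (median -0.23) were lower and 0 higher. Of the nuclear and mitochondrial RNA list 4 of 10 were lower in all 3 datasets, and of the heat shock list 3 of 11. The share of all genes lower in all 3 datasets was not counted, so nothing is drawn from these counts. Nfkbia, an inhibitor of NF-kappaB that NF-kappaB itself induces, measured 1089, 218 and 100.5 CPM in cortex, OM and IM of Aachen. It measured 421, 329 and 321 CPM in Bonn and 1174, 522 and 404 CPM in Hamburg, with the cortex highest in each dataset. Its log2 fold change was -1.19 (SE 0.32; adjusted p = 0.664 by edgeR's quasi-likelihood test with Benjamini-Hochberg adjustment). Nfkbid, an atypical inhibitor of the same family, measured -1.48 (SE 0.49), Tnfaip3, a ubiquitin-editing brake on NF-kappaB, -1.32 (SE 0.40), and Myc -0.98 (SE 0.34), none of them called. Without Aachen, Bonn or Hamburg in turn, edgeR called 1, 12 and 8 genes, of which 1, 9 and 8 were immunoglobulin variable genes. The other 3, called without Bonn alone, where Nfkbia differed least, were Nfkbia, Nfkbid and S100a10. Without the filter on low counts, Nfkbia and Nfkbid were among 4 such genes of 52 called. In the other lists, B cell markers, follicular genes and MHC class II among them, 0 genes were called.

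**Figure D5:**
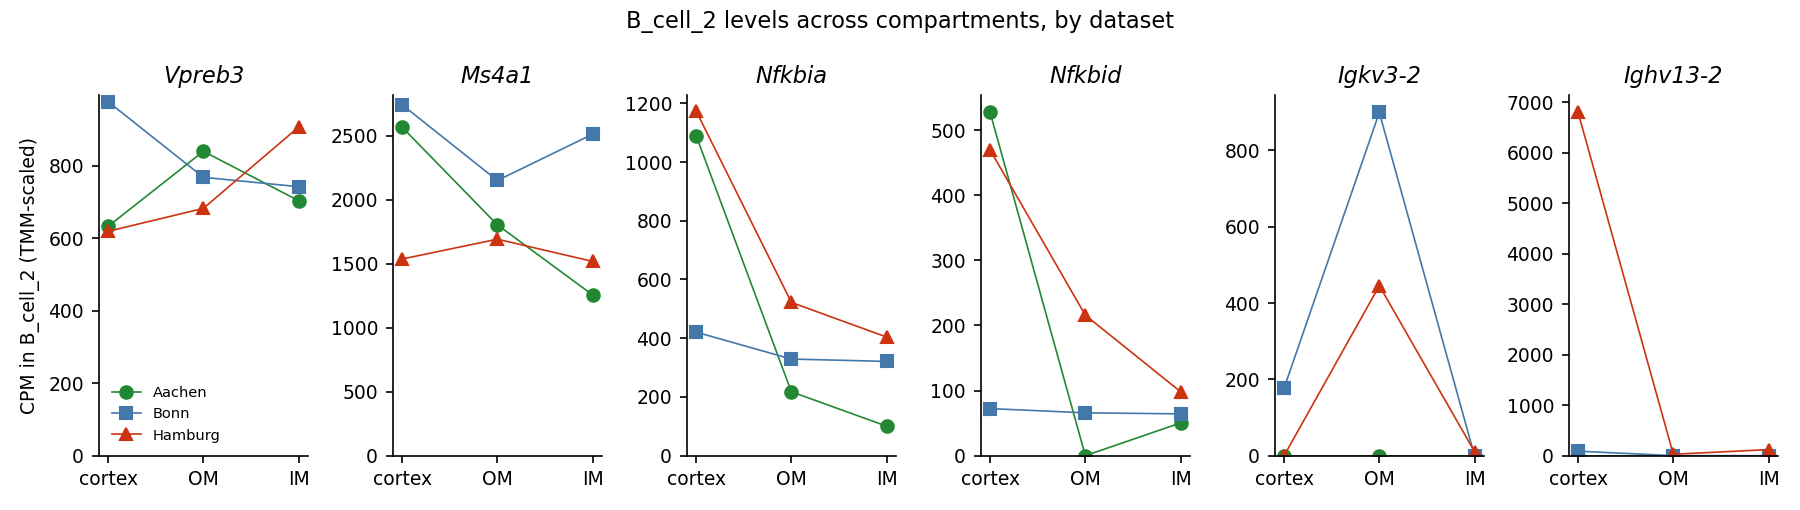
TMM-scaled CPM of 6 genes in B_cell_2 by compartment, with 1 line per dataset and linear axes from 0. Nfkbia and Nfkbid were highest in the cortex of each dataset, Vpreb3 and Ms4a1 had no common order, and Igkv3-2 and Ighv13-2 were at or near 0 in most libraries.

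Between OM and IM, edgeR called 2 of 1825 genes (0.11%), both kappa variable genes and both higher in OM. They fall outside the rule for named genes because Aachen held none, and they were chosen after their values were seen. DESeq2 called 1 variable gene, which was lower in OM, the opposite direction. Without the replicate block, or in cells thinned to 500 UMIs, edgeR called 0. Igkv9-124 had a log2 fold change of 9.33 in OM over IM (SE 1.19, adjusted p = 0.0264 by edgeR's quasi-likelihood test) and Igkv3-2 of 7.33 (SE 0.97). Both fold changes stand against libraries at or near 0 and depend on the prior count. Igkv9-124 was found in 5 B_cell_2 cells and Igkv3-2 in 4, with 42 and 41 UMIs in Bonn OM, 17 and 64 in Hamburg OM, and 0 to 1 in the IM libraries of both datasets.

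The medullary effect differed between B_cell_2 and B_cell_1 in 26 of 5231 genes (0.497%) by the interaction term in edgeR, 8 higher and 18 lower, and all 26 were immunoglobulin variable genes at 0 in Aachen, which puts them outside the rule for named genes. DESeq2 called 0, and 140 genes had an unadjusted p under 0.05 in edgeR. A variable gene marks the receptor of a cell and its clone, and these rested on few cells. A called gene had UMIs in 3 to 29 B_cell_2 cells (median 6), and its single highest cell gave 16.8 to 96.7% of its UMIs (median 36.7%), with over 50% in 7 genes. Ighv13-2 had 679 UMIs in 6 B_cell_2 cells, of which 614 came from 1 cell of Hamburg cortex. The part of single cells with many immunoglobulin UMIs in these calls was not tested.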

How the data were processed

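Droplet-based single-cell RNA sequencing measured CD45-sorted cells of cortex, OM and IM. The authors deposited expected counts of UMIs per gene and cell, without scaling, with the compartment, cluster and facility of each cell. They used Cell Ranger on mm10 and Seurat, removed cells with under 200 or over 4000 genes or with more than 20% mitochondrial UMIs, and annotated clusters with SingleR and markers. The deposited counts are whole in Aachen and Bonn and mostly not whole in Hamburg, for which no reason is given in the sources used here. The 10x kit version was not the same at all facilities and cannot be told apart from the dataset.

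The facility in the table served as replicate (1 Aachen, 2 Bonn, 3 Hamburg), and libraries of 1 facility pair by that column. Counts were summed per library and cluster, rounded, filtered with filterByExpr, scaled by TMM and fitted in R 4.3.3 by the quasi-likelihood functions of edgeR 4.0.16, with a block term for the dataset. Benjamini-Hochberg adjusted p under 0.05 was called. The SE is the log2 fold change divided by the root of F. The difference between clusters used the library as block. DESeq2 1.42.0 was an alternative. Shares were tested by exact two-sided permutation within datasets. Doublets were called with Scrublet in scanpy 1.11.5 (Python 3.11.15), and none were removed from the values reported unless stated. Scripts were tested on simulated data.

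Clusters were compared as log2 CPM with a prior count of 2, without a test. Genes were named by rule: up to 10 per direction and compartment fit with an adjusted p under 0.05 and the same direction in every dataset, up to 15 per direction and cluster pair with the largest mean log2 difference among genes of at least 50 CPM and 1 direction in every library, and members of the 33 gene lists. The first clause named no gene. The members, lists and tests were chosen with earlier results of these data known. Scaling by TMM, sums drawn to equal depth and the removal of 3 cells rich in Jchain were added after seeing the data, as were all alternatives for the values of single named genes. Results for some genes are not reported here.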

Additional observations from a re-analysis of the deposited data

Results flagged for a closer look

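The effect of the medulla differed between B_cell_2 and B_cell_1 by a test of the difference itself in 26 genes (edgeR's quasi-likelihood test of the interaction with Benjamini-Hochberg adjustment), all of them immunoglobulin variable genes. The 3 with the smallest adjusted p were Ighv13-2, with a log2 difference of the medullary effect of -7.58 (SE 0.58, adjusted p = 2.53e-08), Igkv8-19, with -10.00 (SE 1.10, adjusted p = 2.05e-05), and Ighv2-9-1, with -12.61 (SE 1.47, adjusted p = 3.69e-05). Igkv8-19 was found in 3 B_cell_2 cells and Ighv2-9-1 in 7, beside 46 and 26 of 3759 B_cell_1 cells. All B_cell_2 UMIs of Igkv8-19 came from the cortex, 11 in Bonn and 65 in Hamburg. Ighv2-9-1 had 27 UMIs in Bonn cortex, 22 in Hamburg cortex and 7 in Hamburg OM. These fold changes stand against libraries at 0, depend on the prior count and are no bounds.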

How the results depend on the processing

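In the order medulla, OM and IM against cortex, OM against IM, and the difference from B_cell_1, edgeR called 0, 0, 0, 2 and 26 genes. DESeq2 called 2, 2, 1, 1 and 0, and no filter on low counts gave 52, 45, 53, 37 and 43. Without the replicate block, the counts of the last 2 comparisons fell to 0 and 0, and the block changed no other call. Without doublets and cells with other lineages OM against cortex gave 3, thinning to 500 UMIs gave 0 for OM against IM and 1 for the difference from B_cell_1, and leaving out the 3 cells rich in Jchain gave 1 for OM against IM. RLE size factors gave 0, 0, 0, 2 and 28. Of these 28 genes, Gm42418 lay outside the immunoglobulin variable genes. Without doublets and cells with other lineages, the difference from B_cell_1 also gave 28 genes. Among them Gm42418, Nfkbia, Nr4a1 and Wfdc17 lay outside the variable genes. Leaving out each dataset in turn gave 1 to 12, 1 to 10, 1 to 11, 0 to 13 and 17 to 34 genes: 1, 1, 1, 0 and 34 without Aachen, 12, 6, 11, 12 and 32 without Bonn, and 8, 10, 2, 13 and 17 without Hamburg. The cause of these changes was not tested. The share of B_cell_2 in the medulla kept its direction, with -1.94 points without doublets and cells with other lineages, -2.13 in cells of at least 500 UMIs and -3.02 to -0.428 without each dataset.

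Of the 30 genes named beside B_cell_1, none changed sign under the alternatives run. The log2 difference moved by more than 1 SD for 4 genes under TMM, 7 in thinned cells, 5 at equal depth, 2 without doublets and cells with other lineages, and 1 without Bonn. The Aachen libraries, with 15295 to 32821 UMIs of B_cell_2, limit what can be seen of genes under 50 CPM.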
